A study of Mus musculus with 12 samples.

Results

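Matrix metalloproteinases (MMPs) and their tissue inhibitors (TIMPs) were followed in osteoblasts and endothelial cells sorted from mouse long bones with and without a growing mammary tumor. The set held 10 genes, Mmp2, Mmp3, Mmp9, Mmp11, Mmp13, Mmp14, Mmp16, Timp1, Timp2 and Timp3, of 19937 genes measured. Each gene was read from the probe set annotated to that symbol alone, taking the one with the highest mean over the 12 arrays, and each of the 10 had 1 such probe set. Mmp13 was chosen by its measured difference between tumor-bearing and tumor-free mice in endothelial cells, so its endothelial difference and its difference between the cell types are given as descriptions with no test. The endothelial differences of the other genes come from the same contrast and are likewise given untested.

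MMPs are zinc proteases that are made as inactive precursors and cleave collagens and other matrix proteins once their propeptide is removed. TIMPs bind the active site of mature MMPs and block it. In bone, MMPs take part in the removal of cartilage matrix during growth, in the turnover of collagen and in the entry of vessels and osteoclasts into the growth plate.

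The mice were female C57BL/6. Tumor-bearing mice had received 500000 EO771 cells, a mouse mammary cancer line, by injection into the heart, and the cells grew in the long bones for about 2 weeks. Tumor-free mice were the controls, and their ages were not among the labels used here. The 4 groups were osteoblasts of tumor-bearing mice, osteoblasts of tumor-free mice, endothelial cells of tumor-bearing mice and endothelial cells of tumor-free mice, with 3 arrays each from RNA of 5000 cells. Osteoblasts were gated as CD51+ cells lacking GFP, the erythroid marker TR119 as the labels spell it, CD45, SCA1 and CD31, and endothelial cells as SCA1+ CD31+ cells lacking GFP, TR119 and CD45. The labels call the arrays biological replicates, while the series text gives 6 to 10 samples without tying them to arrays, so whether an array pools mice is not known. P-values measure the spread between these arrays.

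The sorted populations carried the marker genes of their names. The median of 12 endothelial markers lay between 5.79 and 6.18 in the 6 osteoblast arrays and between 9.91 and 10.28 in the 6 endothelial arrays, on the deposited log2 scale. The median of 9 measured osteoblast markers lay between 9.77 and 10.67 in osteoblast arrays and between 6.11 and 6.52 in endothelial arrays. Osteoblast arrays also carried chondrocyte markers, with list medians from 8.16 to 10.39, against 5.71 to 6.36 in endothelial arrays. They carried marrow stromal and fibroblast markers too, with list medians from 9.42 to 10.07, against 6.68 to 7.57 in endothelial arrays. Of those 12 markers, 6 were called higher in osteoblasts than in endothelial cells of tumor-bearing mice, beside 4.89% of all genes tested. Between the same cell types of tumor-free mice 12 were called higher, beside 5.38%. The part of these and the chondrocyte markers in the differences between the cell types given here was not tested. Replicate 3 of both osteoblast groups stood apart in 8 pan-haematopoietic markers, with list medians of 6.63 in the tumor-bearing and 6.62 in the tumor-free array, against 5.56 to 5.92 in the other 4 osteoblast arrays.

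Mmp13 and Mmp3 lie in the run of MMP genes on chromosome 9, where the annotation lists 10 protein-coding MMP genes in a row and Mmp13 is at one end. Their promoters are shown because Mmp13 carries the endothelial difference and Mmp3 is the other gene of the set in that run. The windows are the 150 bases before the RefSeq gene start in GRCm38.p6, at chr9:7272364-7272513 on the plus strand for Mmp13 and at chr9:7445672-7445821 on the plus strand for Mmp3, with motif matches in capitals.
Mmp13: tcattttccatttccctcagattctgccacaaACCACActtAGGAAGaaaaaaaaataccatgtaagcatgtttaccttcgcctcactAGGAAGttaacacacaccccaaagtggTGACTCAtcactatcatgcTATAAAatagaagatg
Mmp3: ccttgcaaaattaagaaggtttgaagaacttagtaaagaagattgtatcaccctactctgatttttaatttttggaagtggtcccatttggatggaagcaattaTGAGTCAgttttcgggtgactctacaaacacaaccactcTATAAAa
The letters searched, on both strands, were TGANTCA for AP-1, ACCACA for Runx factors, AGGAAG for Ets factors and TATAAA for the TATA box. The matches in the 2 printed windows did not overlap one another. Mmp13 held 1 AP-1, 1 Runx, 2 Ets and 1 TATA match, and Mmp3 held 1 AP-1 and 1 TATA match. Promoter sequence was found for 7 of the 10 genes and not for Mmp2, Mmp9 and Mmp16. The AP-1 and TATA letters were in the windows of 2 of the 7, those of Mmp13 and Mmp3, while Mmp14 held 1 Runx match, Timp1 held 1 Ets match, and Mmp11, Timp2 and Timp3 held none. Of 32851 promoter windows of that length, 4.24% held the AP-1 letters, 8.4% the Runx letters, 19.7% the Ets letters and 7.57% the TATA letters.

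Of the 10 genes, 9 passed a filter that asked for a value above the array's 40th percentile in at least 3 of 12 arrays. Mmp3, which encodes stromelysin, a protease with broad matrix substrates, exceeded it in 2 arrays, both of osteoblasts of tumor-bearing mice, and was not tested. Its values in osteoblasts were 5.60, 6.42 and 4.76 with a tumor, and 4.93, 5.54 and 5.39 in tumor-free mice. In endothelial cells they were 4.69, 4.65 and 5.16 in tumor-bearing mice and 4.87, 4.91 and 4.56 in tumor-free mice. The groups of tumor-bearing and tumor-free mice overlapped in both cell types, and most values sat in the dim part of the arrays. Mmp16 passed only through its 6 osteoblast arrays, and Mmp13 through 6 osteoblast arrays and the 3 endothelial arrays of tumor-bearing mice, so counts over the genes that passed do not stand for all 10.

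**Figure D1:**
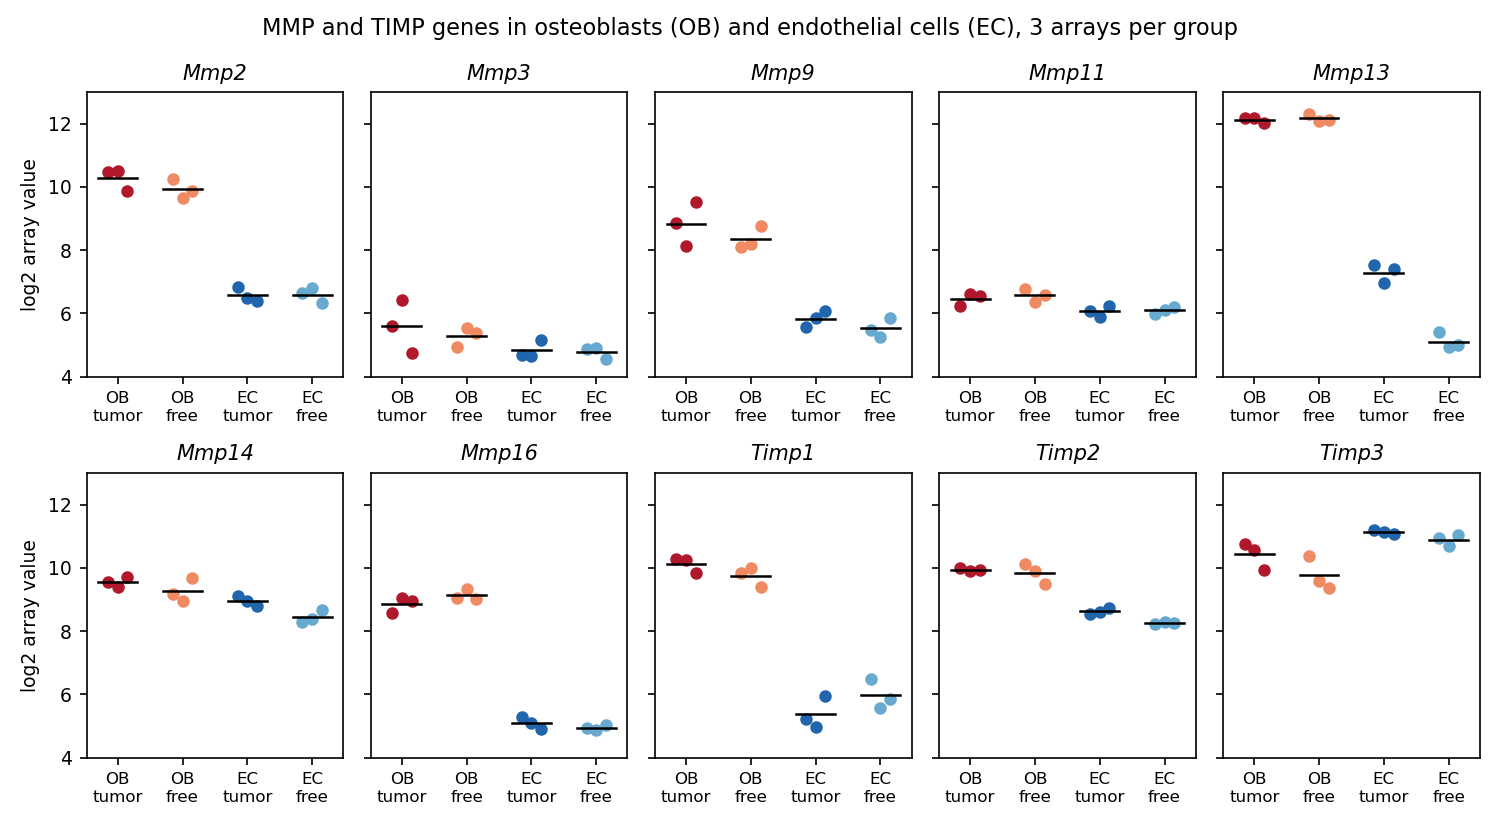
Log2 array values (vertical axis) of the 10 MMP and TIMP genes in osteoblasts (OB) and endothelial cells (EC) of tumor-bearing and tumor-free mice, with 1 point per array, 3 per group, and a line at the group mean. Mmp13 averages 7.29 in endothelial cells of tumor-bearing mice, against 5.11 in those of tumor-free mice, while both osteoblast groups sit above 12.

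Mmp13 encodes a collagenase that cleaves fibrillar collagen and is known from hypertrophic cartilage and bone. In endothelial cells its values were 7.53, 6.96 and 7.40 in tumor-bearing mice and 5.40, 4.93 and 5.00 in tumor-free mice. All 3 endothelial arrays of tumor-bearing mice lay above all 3 of tumor-free mice, a difference of 2.18 on the log2 scale (SE 0.17, n = 3 each) or 4.54-fold. The arrays of tumor-free mice lay at the 28.4th to 36.6th percentile of all probe sets, below the filter's level, and those of tumor-bearing mice at the 72.1st to 79.3rd percentile. The table gives no background level, and since the values in tumor-free mice were dim, the difference in endothelial cells may be understated. It may also be overstated, since Mmp13 was chosen by this difference, and neither was tested. In bulk arrays, fewer cells of a type and less RNA per cell cannot be told apart.

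In osteoblasts Mmp13 stood far higher and nearly level. Its values were 12.19, 12.17 and 12.02 in tumor-bearing mice and 12.31, 12.07 and 12.11 in tumor-free mice, and the 2 groups overlapped. The osteoblast difference was -0.04 with a 95% interval from -0.41 to 0.34 (limma, adjusted p = 0.960). The difference between osteoblasts and endothelial cells was 4.83 in tumor-bearing mice and 7.05 in tumor-free mice, and in both the arrays of the cell types did not overlap. From high to low, the 2 osteoblast groups came first and did not differ beyond their spread, followed by endothelial cells of tumor-bearing mice and then those of tumor-free mice.

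The other genes high in osteoblasts had endothelial differences of smaller size, not tested against that of Mmp13. The endothelial difference between tumor-bearing and tumor-free mice was -0.02 for Mmp2, 0.30 for Mmp9, 0.15 for Mmp16 and -0.59 for Timp1, and the groups overlapped in each. It was 0.50 for Mmp14 and 0.36 for Timp2, and there the groups did not overlap. Marker lists of other cells were set beside it in the same endothelial arrays. Of 12 marrow stromal and fibroblast markers, 12 were higher on average in tumor-bearing mice with a median difference of 0.69, beside 51.4% of all genes tested, and 7 did not overlap between the groups, beside 5.63%. Among them were the leptin receptor gene Lepr, with a mean of 9.45 ± 0.70 in tumor-bearing mice and 7.58 ± 0.40 in tumor-free mice (SD, n = 3), and the chemokine gene Cxcl12, with 9.96 ± 0.46 and 8.90 ± 0.72. The list's median per array was 7.57, 7.28 and 7.49 in tumor-bearing mice and 7.07, 6.68 and 6.93 in tumor-free mice. That median, like Mmp13, was higher in every array of tumor-bearing mice. Lepr had 10.20, 9.34 and 8.82 over the arrays of tumor-bearing mice, an order other than that of Mmp13 (7.53, 6.96 and 7.40). The fibroblast gene Lum, by contrast, had 4.38, 4.06 and 4.20 in tumor-bearing mice and 4.27, 4.13 and 4.17 in tumor-free mice, in the dim part of the arrays. The part of the stromal markers in the difference of Mmp13 was not tested.

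The markers of osteoblasts and chondrocytes gave smaller values in endothelial cells. Of 9 osteoblast markers, 6 had a positive difference with a median of 0.04, and the list's median per array was 6.47, 6.46 and 6.11 in tumor-bearing mice and 6.52, 6.17 and 6.18 in tumor-free mice. One osteoblast marker stood out, the bone sialoprotein gene Ibsp, which was picked after its values were seen. It had 10.25, 8.87 and 8.76 in tumor-bearing mice and 7.83, 8.26 and 7.90 in tumor-free mice. The groups did not overlap for Ibsp, and replicate 1 of the tumor-bearing mice was highest for it, for Lepr and for Mmp13. The orders differed otherwise, since replicate 3 was lowest for Ibsp and Lepr, and replicate 2 was lowest for Mmp13. Of 12 chondrocyte markers, 3 had a positive difference, and the list's median difference was -0.17. Of 12 endothelial markers 8 were higher (median 0.04), of 11 epithelial markers 7 (median 0.08), and of 8 pan-haematopoietic markers 4 (median -0.02).

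**Figure D2:**
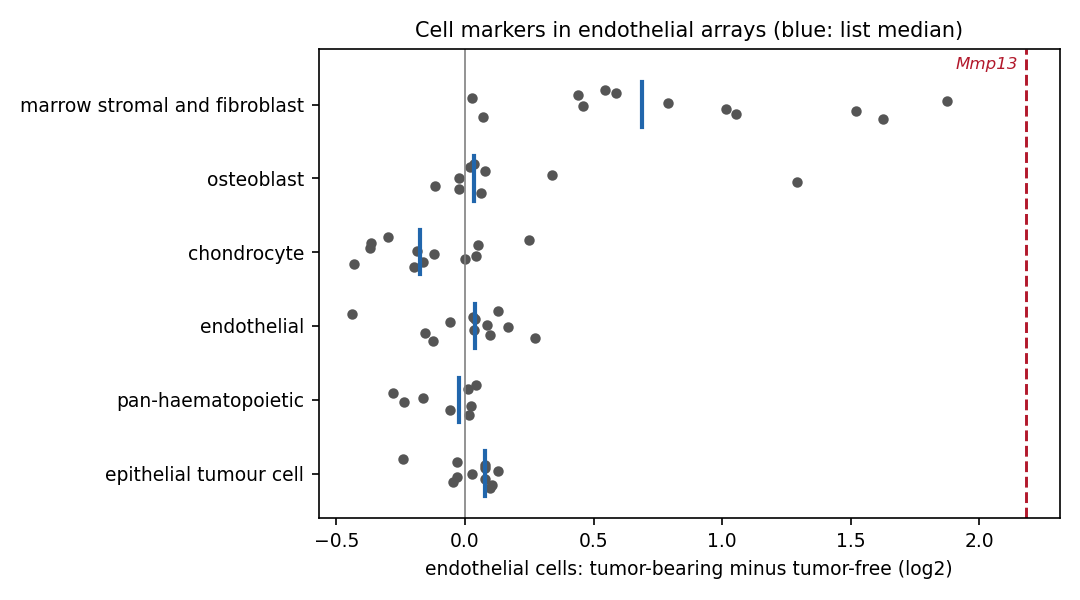
Difference between tumor-bearing and tumor-free mice in endothelial cells (horizontal axis, log2) for the measured genes of 6 marker lists, with 1 point per gene, a blue bar at the list median and a dashed line at Mmp13. The stromal markers run from 0.03 to 1.87 and all lie right of 0, and Mmp13 lies at 2.18, right of every marker shown.

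The genes whose pattern over the 12 arrays was most like that of Mmp13 were Aspn, Postn, Tnc, Cpe and Col12a1, of 14217 genes tested. Likeness was the root mean square difference of log2 values after each gene was centred on its own mean, and it was 0.54, 0.65, 0.66, 0.68 and 0.76 in that order. The gap between the cell types is the largest part of the Mmp13 pattern, so genes picked by this measure had to be high in osteoblasts, as each of the 5 was. The endothelial arrays entered the measure too, so it also favoured genes higher there in tumor-bearing mice. The endothelial differences of the 5 genes between tumor-bearing and tumor-free mice were 1.28, 0.54, 0.80, 1.18 and 0.48 in the same order. All were smaller than that of Mmp13, and they are a description only.

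Beyond Mmp13, the gelatinase genes set osteoblasts apart from endothelial cells. Mmp2 encodes a gelatinase that cleaves denatured and basement membrane collagen. In tumor-bearing mice Mmp2 had values of 10.47, 10.50 and 9.86 in osteoblasts and 6.85, 6.50 and 6.38 in endothelial cells. In tumor-free mice it had 10.25, 9.64 and 9.89 in osteoblasts and 6.64, 6.80 and 6.34 in endothelial cells. Every osteoblast array lay above every endothelial array. Mmp2 was higher in osteoblasts by 3.70 on the log2 scale in tumor-bearing mice (SE 0.22, limma adjusted p = 1.89e-06) and by 3.33 in tumor-free mice (SE 0.22, limma adjusted p = 4.03e-06).

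Mmp9, a gelatinase gene used by osteoclasts and neutrophils as well as stromal cells, had 8.86, 8.13 and 9.53 in osteoblasts and 5.57, 5.86 and 6.08 in endothelial cells of tumor-bearing mice. In tumor-free mice it had 8.10, 8.20 and 8.75 in osteoblasts and 5.48, 5.27 and 5.86 in endothelial cells. The cell types did not overlap, and the difference was 3.01 in tumor-bearing mice (limma adjusted p = 0.000164) and 2.82 in tumor-free mice (limma adjusted p = 0.000234). Replicate 3 was the highest osteoblast array for Mmp9 in both groups and also the highest for the pan-haematopoietic markers, whose part in the Mmp9 values was not tested. Without replicate 3 of both osteoblast groups, an alternative chosen after the data were seen, the differences were 2.66 and 2.62 (limma adjusted p = 0.000262 and 0.000276). The osteoclast gene Ctsk, which encodes a collagen-degrading cathepsin, had 9.22, 8.53 and 8.14 in osteoblasts of tumor-bearing mice, against 8.35, 8.49 and 9.28 without a tumor. Ctsk followed the order of Mmp9 over the arrays of tumor-free mice and not over those of tumor-bearing mice. The median of 11 neutrophil markers was 6.78, 6.24 and 5.68 in osteoblasts of tumor-bearing mice, lowest where Mmp9 was highest, and 6.42, 6.58 and 8.44 in osteoblasts of tumor-free mice, highest where Mmp9 was highest. The part of either in the Mmp9 values was not tested. The median of 9 osteoclast markers lay between 5.70 and 6.04 in osteoblast arrays and between 5.44 and 6.03 in endothelial arrays.

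Of the 2 membrane-type MMP genes, Mmp16 separated the cell types widely and Mmp14 little. Mmp16 encodes a membrane-anchored protease that can activate the precursor of Mmp2. It had 8.59, 9.05 and 8.94 in osteoblasts and 5.29, 5.10 and 4.90 in endothelial cells of tumor-bearing mice. In tumor-free mice it had 9.05, 9.34 and 9.02 in osteoblasts and 4.93, 4.89 and 5.03 in endothelial cells. Every osteoblast array lay above every endothelial array, and the difference was 3.77 in tumor-bearing mice and 4.19 in tumor-free mice. Its endothelial values were below the filter's level in all 6 arrays, so it passed only through osteoblasts, had to differ, and is described without a test. Values that dim may lie near the background of the arrays, so both differences may be understated.

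Mmp14 encodes the main membrane-type collagenase, which activates the Mmp2 precursor in a complex with Timp2. Its values in tumor-bearing mice were 9.55, 9.40 and 9.73 in osteoblasts and 9.12, 8.95 and 8.78 in endothelial cells. Those in tumor-free mice were 9.18, 8.96 and 9.68 in osteoblasts and 8.28, 8.39 and 8.68 in endothelial cells. The cell types did not overlap in either, but only the difference in tumor-free mice passed (0.82, limma adjusted p = 0.0171), and that in tumor-bearing mice did not (0.61, limma adjusted p = 0.0725). The call in tumor-free mice was lost in a fit of only the 2 groups (adjusted p = 0.0684) and without replicates 1 or 2 of the tumor-free endothelial cells (adjusted p = 0.0720 and 0.0606). Mmp11, the stromelysin-like gene whose product is activated inside the cell by furin, ranged from 6.23 to 6.78 in osteoblasts, against 5.89 to 6.25 in endothelial cells. Its difference was 0.39 in tumor-bearing mice and 0.48 in tumor-free mice, and neither passed (limma adjusted p = 0.141 and 0.0659), though the second passed with quantile normalization (0.0427) and without replicate 2 of the tumor-free osteoblasts (0.0444).

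The 3 inhibitor genes did not share a direction between the cell types. Timp1, a secreted inhibitor that acts weakly on membrane-type MMPs, had 10.27, 10.26 and 9.84 in osteoblasts and 5.24, 4.97 and 5.94 in endothelial cells of tumor-bearing mice. In tumor-free mice it had 9.84, 10.01 and 9.39 in osteoblasts and 6.49, 5.57 and 5.86 in endothelial cells. Timp1 was thus higher in every osteoblast array, by 4.74 in tumor-bearing mice and 3.77 in tumor-free mice (limma adjusted p = 2.55e-06 and 1.44e-05). Timp2, the partner of Mmp14 in Mmp2 activation, was also higher in osteoblasts, at 9.90 to 9.98 against 8.54 to 8.74 in endothelial cells of tumor-bearing mice. In tumor-free mice Timp2 ranged from 9.50 to 10.11 in osteoblasts, against 8.24 to 8.28 in endothelial cells. Its difference was 1.31 in tumor-bearing mice and 1.58 in tumor-free mice (limma adjusted p = 0.000162 and 3.77e-05).

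Timp3, whose product stays bound to the matrix and also blocks VEGF receptor signalling, ran the other way. Its values in tumor-bearing mice were 10.77, 10.57 and 9.94 in osteoblasts and 11.19, 11.15 and 11.08 in endothelial cells. In tumor-free mice they were 10.38, 9.57 and 9.38 in osteoblasts and 10.94, 10.70 and 11.04 in endothelial cells. Within tumor-bearing mice and within tumor-free mice, every osteoblast array lay below every endothelial array. The difference in tumor-free mice passed (-1.12, limma adjusted p = 0.0189) and that in tumor-bearing mice did not (-0.71, limma adjusted p = 0.132). The call in tumor-free mice was lost in a fit of only the 2 groups (adjusted p = 0.0529) and without replicates 2 or 3 of the tumor-free osteoblasts or 1 or 3 of the tumor-free endothelial cells (adjusted p from 0.0634 to 0.0695).

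**Figure D3:**
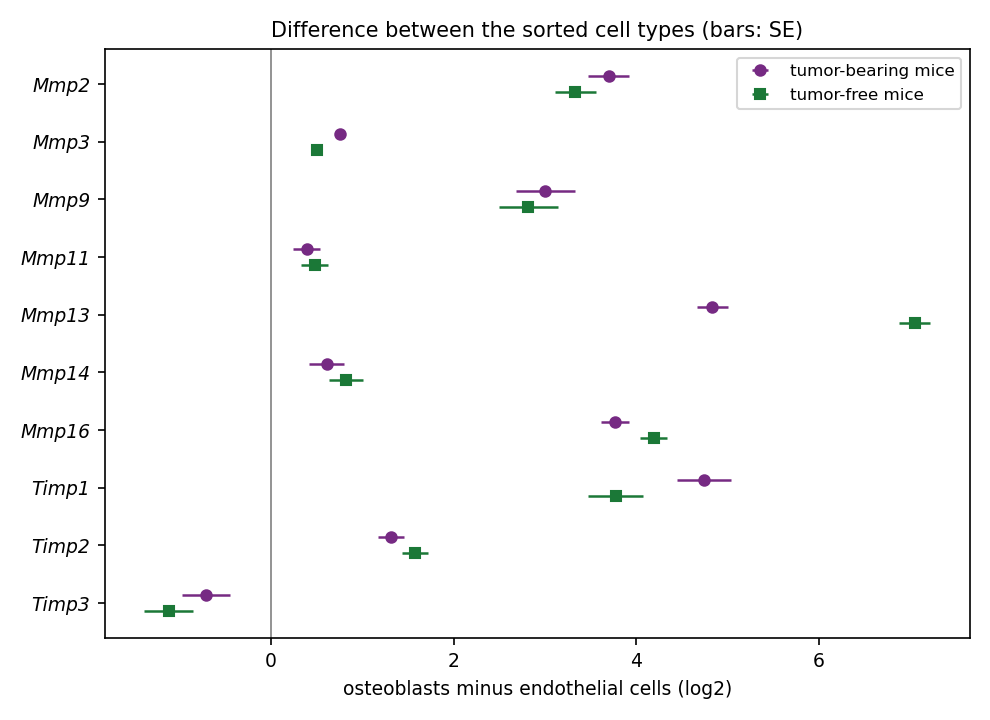
Osteoblasts minus endothelial cells (horizontal axis, log2) for the 10 genes in tumor-bearing mice (circles) and tumor-free mice (squares), with bars for the standard error of the limma fit. Timp3 lies left of 0 and the other 9 genes right of it; Mmp3, which was not tested, and Mmp13, given as a description, are included.

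Mmp13, chosen by its values, and Mmp16, which passed the filter through osteoblasts alone, were left out of the counts. Of the other 7 genes tested, 4 were called higher in osteoblasts than in endothelial cells of tumor-bearing mice and 0 were lower. Of all genes tested, 4.89% were higher and 5.68% lower. In tumor-free mice 5 of the 7 were higher and 1 was lower, against 5.38% and 7% of all genes. At an unadjusted p under 0.05 all 7 differed in both kinds of mice, where 22.8% of all genes did in tumor-bearing mice and 23.5% in tumor-free mice. The arrays of the cell types did not overlap for 6 of the 7 in tumor-bearing mice, where 28.1% of all genes did not, and for 7 of the 7 in tumor-free mice, where 29.4% did not. The genes were chosen with earlier results of these data known, so these counts are a description.

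Further genes of MMP biology were counted in the same fits, and their counts stand beside the same shares of all genes tested. Of 17 further genes listed, Timp4 and other MMP genes, 16 were measured and 9 tested. In tumor-bearing mice 0 were higher and 1 was lower in osteoblasts, and in tumor-free mice 1 was higher and 1 lower. The shares of all genes tested were 4.89% and 5.68% in tumor-bearing mice and 5.38% and 7% in tumor-free mice, so these counts of 9 are little apart from them. The gene called higher was the membrane-bound protease gene Mmp23 (1.18 in tumor-free mice, limma adjusted p = 0.00913). Timp4 was lower in osteoblasts, with a difference of -1.67 in tumor-bearing mice and -1.07 in tumor-free mice (limma adjusted p = 0.00274 and 0.0282).

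Among 8 other inhibitor and clearance genes, 4 were higher and 1 was lower in osteoblasts in both kinds of mice. Higher were the broad protease trap gene A2m (3.53 in tumor-bearing mice and 3.01 in tumor-free mice), the endocytic receptor gene Lrp1 (2.55 and 2.65), whose product takes up protease complexes including Mmp13, the collagen uptake receptor gene Mrc2 (1.50 and 1.68), and Cst3 (0.95 and 1.27), which encodes a cysteine protease inhibitor. The lower gene was Tfpi2, a serine protease inhibitor gene (-1.82 and -1.55). Among activators of MMP precursors and genes of the plasminogen system, 2 of 11 tested genes were higher and 0 lower in tumor-bearing mice, and 2 were higher and 2 lower in tumor-free mice. The hyaluronan receptor gene Cd44 was higher in both (1.99 and 1.38), and the proprotein convertase gene Pcsk6 in tumor-bearing mice (0.82). In tumor-free mice the integrin gene Itgav was also higher (1.41). Itgav encodes CD51, the marker by which osteoblasts were gated. The sort may have favoured that call, which was not tested. The urokinase gene Plau and its receptor gene Plaur were lower in tumor-free mice (-1.50 and -0.88). Of 13 tested substrate genes, 10 were higher and 2 lower in both kinds of mice. Col1a2 (3.80 and 3.86), Col1a1 (3.53 and 3.48) and the fibronectin gene Fn1 (4.76 and 4.94) were higher, while the basement membrane collagen genes Col4a1 (-0.72 and -0.81) and Col4a2 (-1.10 and -0.78) were lower.

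Inducers and transcription factors of MMP genes, 16 of them tested, were also compared between osteoblasts and endothelial cells. In tumor-bearing mice 1 was higher and 2 were lower in osteoblasts, and in tumor-free mice 2 were higher and 4 lower. Among all genes tested 4.89% were higher and 5.68% lower in tumor-bearing mice, against which 1 and 2 of 16 are little apart, and 5.38% and 7% in tumor-free mice. The factor gene Runx1 was higher (1.59 and 2.54), and Ets1 (-2.23 and -2.58) and Ets2 (-2.72 and -2.63) were lower. In tumor-free mice Mef2c was also higher (0.76), and Hif1a (-0.78) and Tgfb1 (-0.71) were lower. Cst3 and Tgfb1 were named after their values were seen. The genes of these lists named as higher or lower had limma adjusted p of at most 0.0461 in each comparison where they are so called.

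Between tumor-bearing and tumor-free mice, none of the 9 genes tested passed in osteoblasts. Limma called 0 of the 9, where 0.0563% of all genes tested were called, and at an unadjusted p under 0.05 it gave 1, Timp3, where 9.78% of all genes reached that level. The 2 osteoblast groups overlapped in all 9, where 14.5% of all genes tested did not overlap. Timp3 had the largest difference of the 9 (0.65, 95% interval from 0.06 to 1.24, limma adjusted p = 0.474). Replicate 3 was its lowest array in both groups. Chondrocyte list medians were 10.00, 10.24 and 8.16 in osteoblasts of tumor-bearing mice, against 8.37, 10.39 and 8.20 in osteoblasts of tumor-free mice, and their part in the Timp3 values was not tested.

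The 95% intervals of the other osteoblast differences included 0. Mmp9 had 0.49 (from -0.23 to 1.21), Timp1 had 0.38 (from -0.28 to 1.04), Mmp2 had 0.35 (from -0.14 to 0.84) and Mmp14 had 0.29 (from -0.14 to 0.71). Timp2 had 0.10 (from -0.21 to 0.41), Mmp11 had -0.11 (from -0.45 to 0.22) and Mmp16 had -0.28 (from -0.61 to 0.06). The intervals of Mmp13, Timp2 and Mmp11 lay within a difference of 0.45 in either direction, while those of Mmp9, Timp1 and Timp3 reached past 1. Of the 9 genes, 6 had a positive difference, where 46.7% of all genes tested did, and the median over the 9 was 0.29, against -0.02 over all genes tested.

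**Figure D4:**
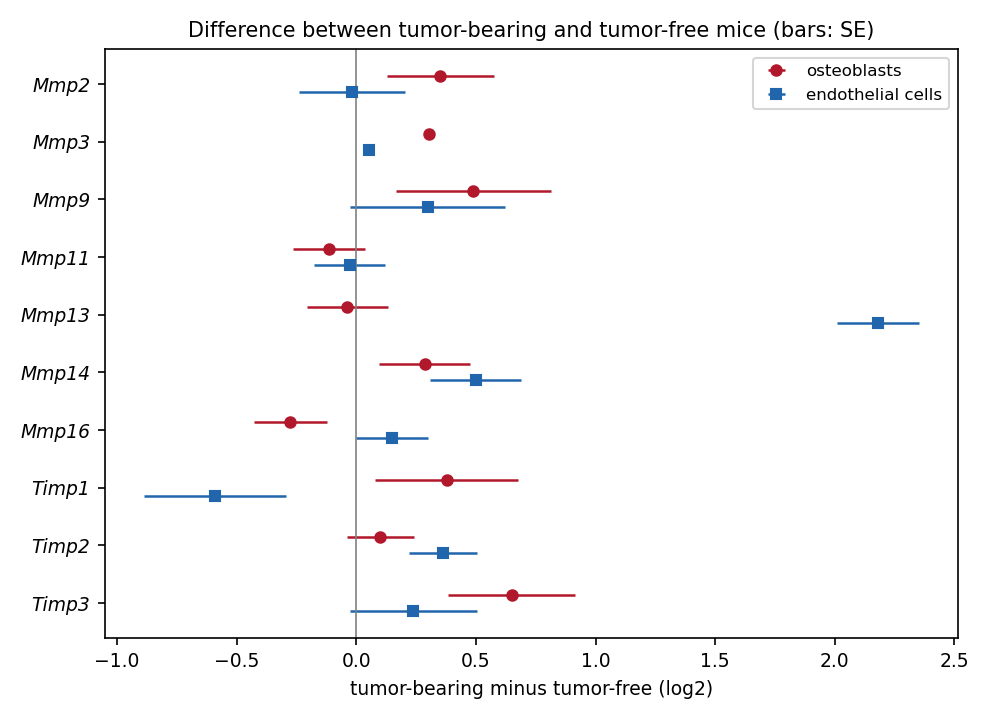
Tumor-bearing minus tumor-free mice (horizontal axis, log2) for the 10 genes in osteoblasts (circles) and endothelial cells (squares), with bars for the standard error of the limma fit (none for Mmp3, which was not tested). Mmp13 stands at 2.18 in endothelial cells and -0.04 in osteoblasts, and the other points lie between -0.59 and 0.65.

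In endothelial cells the differences of the genes other than Mmp13 were small, and they are described without a test. The groups of tumor-bearing and tumor-free mice did not overlap for 4 of the 9 genes that passed the filter, Mmp13, Mmp14, Timp2 and Timp3, each higher in tumor-bearing mice, where 5.63% of all genes tested did so. Without Mmp13, which this contrast chose, it was 3 of 8. Mmp14 averaged 8.95 ± 0.17 in tumor-bearing mice and 8.45 ± 0.21 in tumor-free mice, and Timp2 8.62 ± 0.10 and 8.26 ± 0.02 (SD, n = 3 each). Timp3 averaged 11.14 ± 0.06 in tumor-bearing mice and 10.90 ± 0.17 in tumor-free mice. Timp1 went the other way in its means, 5.38 ± 0.50 in tumor-bearing mice and 5.97 ± 0.47 in tumor-free mice, with overlapping groups. Mmp11 averaged 6.07 ± 0.18 and 6.10 ± 0.11 in the same order.

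The osteoblast and endothelial differences between tumor-bearing and tumor-free mice were set side by side. For Mmp13 the osteoblast difference less the endothelial difference was -2.22 (SE 0.24). For Timp1 it was 0.97 (SE 0.42), with values of 0.38 in osteoblasts and -0.59 in endothelial cells, and the other 7 genes with a fit lay between -0.42 and 0.41. No test is given for these, since the contrast that chose Mmp13 is part of them.

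Among the activators and the plasminogen system, limma called 0 of 11 tested genes in osteoblasts between tumor-bearing and tumor-free mice. At an unadjusted p under 0.05 it gave 4 of the 11, beside 9.78% of all genes tested. The 2 osteoblast groups did not overlap, with tumor-bearing mice higher, for 5 of the 11, beside 6.18% of all genes tested. Of these, chosen for naming after their values were seen, the tissue plasminogen activator gene Plat had a difference of 0.88, Cd44 of 0.78, Plau of 0.75, Plaur of 0.63 and the integrin gene Itgb3 of 0.35. Their limma adjusted p lay between 0.178 and 0.657. In endothelial cells 1 of the 11 did not overlap, Plat, with 7.11 in tumor-bearing mice and 6.51 in tumor-free mice, where 5.63% of all genes did not overlap in that direction, so the count is near that share. Substrate genes, the other MMP genes with Timp4, and the other inhibitor and clearance genes had 0 called in osteoblasts by limma. At an unadjusted p under 0.05 they had 0 of 13, 0 of 9 and 1 of 8, beside the same 9.78% of all genes. The last was A2m (0.58, limma adjusted p = 0.286). The inducers had 0 of 16 called and 3 of 16 at that level, beside 9.78% of all genes tested. The 3 were Fosb (0.68), Fosl1 (0.58) and Ets1 (0.40), with limma adjusted p between 0.280 and 0.482. In endothelial cells 15 of the 16 inducers had a positive difference, beside 51.4% of all genes tested. The endothelial groups did not overlap, with tumor-bearing mice higher, for 3 of the 16, beside 5.63% of all genes tested. Of these only Runx1 is given here, picked after its values were seen, and the others are left out. Runx1 had 6.57 ± 0.33 in tumor-bearing mice and 5.89 ± 0.23 in tumor-free mice (SD, n = 3 each). Its part in the Mmp13 values was not tested.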

How the data were processed

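RNA of 5000 sorted cells per sample was isolated with a Pico Pure kit, amplified by single primer isothermal amplification and labelled with biotin, per the labels' protocols. The table the authors deposited holds log2 values. Per the submitters' processing notes the authors used the Bioconductor package affy, with summary method, version and probe set definition not given in the sources used here. Array medians lay between 5.95 and 6.04, and the authors' normalization was kept.

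Of 34760 probe sets, 21640 had 1 symbol, 1321 several and 11799 none in the platform annotation. Symbols were updated through gene numbers in a RefSeq table of assembly GRCm38.p6, with 21553 matched. One probe set per gene, that with the highest mean, left 19937 genes. Of these, 14217 exceeded the array's 40th percentile in at least 3 of 12 arrays and were tested.

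Limma 3.58.1 (R 4.3.3) fitted 1 mean per group across the 12 arrays, with eBayes moderation (2.36 prior degrees of freedom). P-values are two-sided and adjusted by Benjamini-Hochberg over all genes tested, with a threshold of 0.05. The fit was tested on simulated data. Amplifying so little RNA can shift transcript proportions, and the number of arrays limits the precision. Groups came from the sample titles.

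The 10 genes and the gene lists were chosen with earlier results of these data known. All 10 are named. From each list up to 3 genes per direction were named that passed in a contrast between cell types or between mice with arrays not overlapping, smallest p first, and for Mmp13 the 5 genes most like it; genes named otherwise are marked as chosen after their values were seen or stand beside a result as markers. Promoter sequences are from RefSeq, build GRCm38.p6. The alternatives changed the scaling (median centring or quantile normalization), the filter (none, or the 60th percentile), the probe set rule (mean per gene), the variance model (robust trended prior, or weights per array), the arrays fitted (the compared groups alone, or all but 1), the design (replicate block) and the threshold (a log2 difference of at least 1 besides). Leaving out replicate 3 of both osteoblast groups was added after the data were seen.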

Additional observations from a re-analysis of the deposited data

How the results depend on the processing

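The counts of MMP and TIMP genes called, between the cell types without Mmp13 and with Mmp16, stayed within 1.5 times under every alternative run. Mmp16, which passed the filter through osteoblasts alone and had to differ, was called between the cell types in all 22 alternatives. Its call in each of those counts was therefore fixed beforehand. Between osteoblasts and endothelial cells the counts were 5 to 6 in tumor-bearing and 5 to 8 in tumor-free mice, and in osteoblasts between tumor-bearing and tumor-free mice 0 throughout. With 1 array left out at a time they ranged from 5 to 6, from 5 to 7 and stayed at 0. The endothelial difference of Mmp13 ranged from 2.06 to 2.35 with 1 array left out and was 2.03 with array weights and 2.22 with median centring. With the replicate block it was 2.18, and the counts were 5, 7 and 0, the same as without it. Deviations of samples with the same number correlated between -0.05 and 0.07, so the numbers were not taken to pair samples. Counts over all genes moved more. In osteoblasts between tumor-bearing and tumor-free mice, 8 genes were called, against 5 with quantile normalization, 1 with array weights, 1 with the replicate block, 0 with only the groups compared, 45 without replicate 3 of both osteoblast groups, and 1 to 25 with 1 array left out. In endothelial cells 2 were called, and 2 to 6 with 1 array left out. Between the cell types 1503 and 1760 were called in tumor-bearing and tumor-free mice, and 1000 and 1130 with a log2 difference of at least 1. The cause of these shifts was not tested. Of the single genes, Mmp14, Timp3 and Mmp11 changed their call between the cell types under some alternatives. In tumor-bearing mice Timp3 passed without replicate 1 (adjusted p = 0.0493) and Mmp14 without replicate 3 (adjusted p = 0.0279) of the tumor-free osteoblasts, arrays that enter this comparison only through the shared spread.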

Other observations

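Replicate 3 of the osteoblasts of tumor-bearing mice was the highest of the 12 arrays for Mmp9 (9.53) and for Ptprc, the gene of the pan-haematopoietic marker CD45 (7.28, against 5.10 to 6.31 in the other osteoblast arrays). In the same array the keratin gene Krt8, 1 of 11 epithelial markers, had 10.13, against 6.79 to 7.54 in the other osteoblast arrays. The median of the 11 epithelial markers in that array was 5.44, the lowest of the 6 osteoblast arrays, and Epcam had 5.35, against 5.20 to 5.62 in the others. These genes were picked after their values were seen.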
